A study of Mus musculus with 6 samples.

Results

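AKT, TSC and mTOR form the signaling axis by which growth factor and antigen receptors set cell growth. Phosphoinositide 3-kinase (PI3K) recruits the kinases AKT1 and AKT2 to the membrane, and AKT phosphorylates TSC2. TSC1 and TSC2 form a complex that switches off the GTPase RHEB, and RHEB bound to GTP activates the mTOR kinase. mTOR works in mTORC1, built on Raptor (*Rptor*), which promotes translation and biosynthesis, and in mTORC2, built on Rictor, which phosphorylates AKT. In B cells this axis accompanies the growth that follows activation. The transcripts of these 8 genes, *Akt1*, *Akt2*, *Mtor*, *Rptor*, *Rictor*, *Tsc1*, *Tsc2* and *Rheb*, were taken by gene name from a table of 55421 genes, and all 8 had 1 row each. All 8 passed the filter on low values that left 17640 genes for testing.

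RNA-seq was done on splenic B cells of 3 WT mice (CD21-cre) and 3 hnRNPL-deficient mice (hnRNPL F/F CD21-cre), with 1 library per mouse. According to the methods, both groups also carried the Rosa mT/mG reporter on a C57BL6/J background, and the mice, of either sex, were older than 6 weeks. CD21-cre deletes mostly in peripheral B cells, and GFP+ cells, in which Cre had been active, were sorted after 24 h of culture in 5 μg/ml LPS plus IL-4 at 5 ng/ml. Both groups therefore share the Cre, the reporter and the stimulation, and the question was how loss of the RNA-binding protein hnRNPL changes the transcriptome of activated B cells. Values are normalized counts, that is, reads per gene divided by a size factor for the library.

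Libraries held between 40395186 and 75180749 reads on genes, the shallowest being hnRNPL-deficient library 3. *Hnrnpl* itself was at 6.74% of the WT mean in the hnRNPL-deficient libraries. The 6 B-cell markers, such as *Cd79a* and *Ms4a1*, summed to between 274249 and 350783 normalized counts in WT and between 266462 and 312659 in hnRNPL-deficient libraries. None of the 6 was called. Of the 6 T-cell markers, *Lck* made up most of a sum of 898 to 1013 in WT and 621 to 858 in hnRNPL-deficient libraries, and *Cd3e* did not exceed 1.01. The 6 myeloid markers summed to 260 to 331 in WT and 1239 to 1382 in hnRNPL-deficient libraries. This was nearly all *Adgre1*, with *S100a8* and *S100a9* at 0 in every library and *Lyz2* at 0 in 5 of 6. Of the 5 plasma cell markers *Jchain* was called lower, of the 5 erythroid markers *Hbb-bt* was called higher from a sum of 18 to 38 to one of 55 to 85, and the 3 natural killer markers summed to at most 3. The part of other cells in the results was not tested.

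Per kilobase of exon, *Akt1* was the most abundant of the 8 transcripts in WT and *Tsc1* the least. The level of *Akt1* was 1510.7 ± 144 normalized counts per kilobase in WT (SD, n = 3 mice), 8.80 times that of *Tsc1*. *Akt1* was higher than 86.9% of all tested genes on this scale and *Tsc1* higher than 47.6%. *Akt2* followed at 811 ± 37.8 normalized counts per kilobase, *Mtor* at 539 ± 49.1, *Tsc2* at 439 ± 9.83 and *Rheb* at 346 ± 20.2. *Rictor* at 308 ± 6.08 and *Rptor* at 305 ± 51.8 were neighbors in the order whose WT libraries overlapped. The other neighboring pairs did not overlap in WT. In the hnRNPL-deficient libraries *Tsc2* (579 ± 5.98 normalized counts per kilobase) stood above *Mtor* (435 ± 47.2), and *Rictor* (371 ± 52.7) above *Rheb* (322 ± 16.1), while *Akt1*, *Akt2*, *Rptor* and *Tsc1* kept their places in the order. The kilobases are annotated exons joined over all isoforms, so a gene with long unused exons is understated.

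Of the 8 genes, *Tsc2* was the one whose mRNA level differed between the groups by the adjusted p. Its mean was 1.32-fold higher in hnRNPL-deficient cells, and the means of the other genes lay between 0.807 (*Mtor*) and 1.21 (*Rictor*) of the WT mean. None of the 8 was called at an adjusted p under 0.1 with at least a 1.5-fold change by limma. Across all tested genes 11.4% met both criteria. At any size of change, 1 of 8, *Tsc2*, passed an adjusted p of 0.1, against 18.0% of all tested genes (10.0% higher and 7.97% lower). Of the 8 genes, 2, *Tsc2* and *Mtor*, had an unadjusted limma p under 0.05. The 18.0% of all tested genes with an adjusted p under 0.1 met this looser limit too, so the share over all genes was at least as large. edgeR and DESeq2, run on the reads of 5 libraries without hnRNPL-deficient library 2, also called none of the 8 at 1.5-fold. The X-linked *Xist* had 98507 normalized counts in WT library 3, 98219 in hnRNPL-deficient library 2 and at most 7.21 in the others. The 5 libraries thus held high *Xist* in WT only. Leaving hnRNPL-deficient library 2 out of limma took the log2 fold change of *Akt1* to -0.40 and that of *Mtor* to -0.39. The 95% intervals of 6 of the 8 fold changes lay wholly within 1.5-fold of no change, which was so for 34.4% of all tested genes. The median log2 fold change of the 8 genes was -0.04, and that of all tested genes -0.03.

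**Figure D1:**
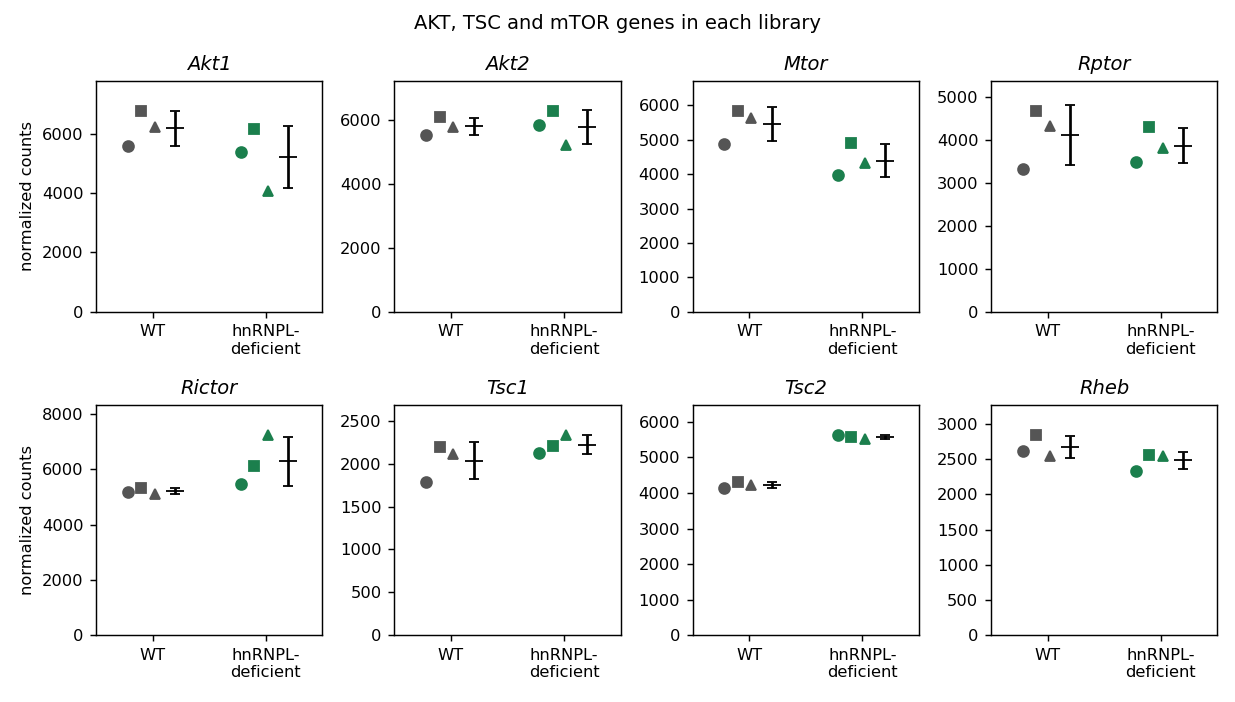
Normalized counts (vertical axes, each starting at 0) of the 8 genes in 3 WT (grey) and 3 hnRNPL-deficient (green) libraries. Circles, squares and triangles mark libraries 1, 2 and 3, and the bars give the mean and SD. The *Tsc2* libraries form separate tight groups, from 4128 to 4317 in WT and from 5514 to 5629 in hnRNPL-deficient cells, while most other genes overlap.

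The TSC complex holds mTORC1 in check. *Tsc2* encodes the subunit that makes RHEB hydrolyze its GTP and is the direct AKT substrate of the complex. Its gene lies on chromosome 17, 24595816 to 24632630 (GRCm38, minus strand). *Tsc2* had 4128, 4317 and 4224 normalized counts in WT against 5629, 5572 and 5514 in hnRNPL-deficient libraries. All hnRNPL-deficient libraries lay above all WT libraries, and the spread within either group was small (SD 94.5 and 57.6). The log2 fold change of *Tsc2* was 0.40 (standard error, SE, 0.0841, limma adjusted p = 0.0203), a 1.32-fold difference with a 95% interval of 1.16 to 1.51. *Tsc2* passed an adjusted p of 0.1 with every library left out in turn and in each of the 19 alternatives, and was under 1.5-fold in each. *Tsc2* overlaps *Pkd1* on the opposite strand, and counting was by strand.

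*Tsc1*, whose product hamartin stabilizes TSC2, lies on chromosome 2 (28641228 to 28691167). It had 1791, 2197 and 2108 normalized counts in WT against 2124, 2203 and 2334 in hnRNPL-deficient libraries. WT library 2 lay above hnRNPL-deficient library 1, so the groups overlapped. The log2 fold change of *Tsc1* was 0.13 (SE 0.113, limma adjusted p = 0.486), with an interval of 0.917 to 1.31-fold. *Tbc1d7*, the third subunit of the complex, was at 552 ± 82.3 normalized counts in WT against 587 ± 103 in hnRNPL-deficient libraries (log2 fold change 0.08, limma adjusted p = 0.802). The *Tsc1* to *Tsc2* ratio within a library, which no size factor can move, was 0.434, 0.509 and 0.499 in WT against 0.377, 0.395 and 0.423 in hnRNPL-deficient libraries. The ratio was lower in each hnRNPL-deficient library than in any WT library. Its log2 difference was -0.27 (SE 0.0871, two-sided exact permutation p = 0.1, adjusted over 3 ratios 0.15), where 0.1 is the smallest p that 3 against 3 can give. It ranged from -0.34 to -0.22 with libraries left out.

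**Figure D2:**
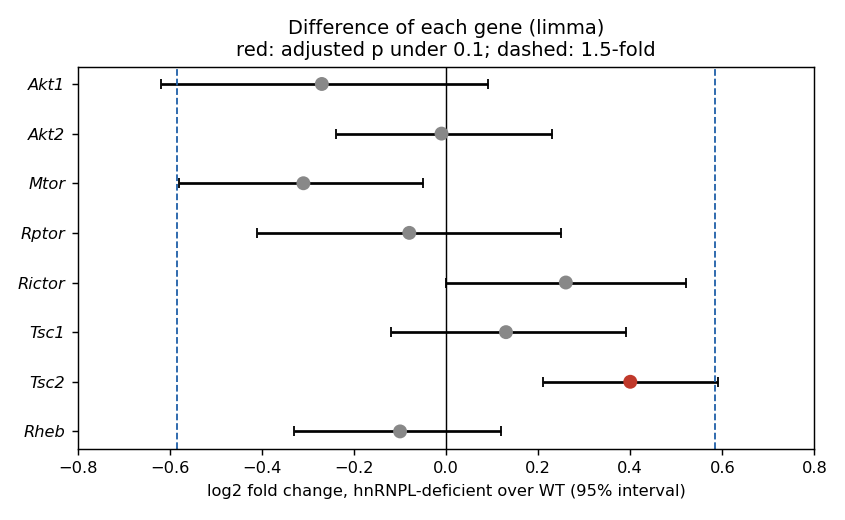
Log2 fold change (horizontal axis) of each gene in hnRNPL-deficient over WT libraries, with 95% intervals from limma. Red marks an adjusted p under 0.1 and the dashed lines a 1.5-fold change. Only *Tsc2*, at 0.40, is red, and *Mtor*, at -0.31, is the lowest of the 8.

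*Rheb* encodes the GTPase that the TSC complex acts on and that activates mTORC1 when loaded with GTP. The gene lies on chromosome 5 (24802823 to 24842624). *Rheb* had 2612, 2846 and 2550 normalized counts in WT against 2340, 2561 and 2547 in hnRNPL-deficient libraries, and the groups overlapped. Its log2 fold change was -0.10 (SE 0.0982, limma adjusted p = 0.529), with an interval of 0.796 to 1.09-fold. Its paralog *Rhebl1* was far less abundant per kilobase, at 73.5 in WT against 346 for *Rheb*, and was at 0.845 of its WT mean (limma adjusted p = 0.480).

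*Mtor*, the kinase shared by both complexes, lies on chromosome 4 (148448611 to 148557683). It had 4886, 5832 and 5622 normalized counts in WT against 3967, 4909 and 4311 in hnRNPL-deficient libraries. The groups overlapped by a small margin, since hnRNPL-deficient library 2 lay just above WT library 1. The mean was 19.3% lower in hnRNPL-deficient cells, with a log2 fold change of -0.31 (SE 0.116, unadjusted p = 0.0265, limma adjusted p = 0.125). The sign was the same in each of the 19 alternatives. The adjusted p fell under 0.1 in 4 of the 19, among them without WT library 1 (0.0843), by DESeq2 (0.0723) and with array weights (0.0244), and over all alternatives ranged from 0.0244 to 0.305.

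*Rptor* encodes the scaffold that presents substrates to mTORC1. The gene lies on chromosome 11 (119602905 to 119899576). *Rptor* had 3334, 4678 and 4330 normalized counts in WT against 3492, 4311 and 3810 in hnRNPL-deficient libraries. WT library 1 was the lowest of the 6, and WT library 2 the highest, so the hnRNPL-deficient values lay wholly inside the WT range. The log2 fold change of *Rptor* was -0.08 (SE 0.145, limma adjusted p = 0.761), with an interval of 0.753 to 1.19-fold.

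*Rictor*, the defining subunit of mTORC2 and so part of the complex that phosphorylates AKT, lies on chromosome 15 (6708379 to 6800401). It had 5199, 5323 and 5119 normalized counts in WT against 5486, 6128 and 7248 in hnRNPL-deficient libraries. All hnRNPL-deficient libraries lay above all WT libraries, a pattern shown by 34.0% of all tested genes in one direction or the other. The hnRNPL-deficient spread was wide, with an SD of 892 against 103 in WT, and the shallowest library, hnRNPL-deficient library 3, was the highest. The log2 fold change was 0.26 (SE 0.115, limma adjusted p = 0.186), with an interval of 0.998 to 1.44-fold. Without hnRNPL-deficient library 3 the log2 fold change of *Rictor* was 0.15 (limma adjusted p = 0.364), and without hnRNPL-deficient library 1 it was 0.35 (0.123). Over the 19 alternatives the adjusted p of *Rictor* ranged from 0.0900 to 0.364, with 1 of them under 0.1. *Tsc2* and *Rictor* were the 2 genes of the 8 whose groups did not overlap.

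*Rictor* stood against *Rptor* at 1.56, 1.14 and 1.18 in WT against 1.57, 1.42 and 1.90 in hnRNPL-deficient libraries, as a ratio of normalized counts. The ratios overlapped between the groups. Their log2 difference was 0.34 (SE 0.189, two-sided exact permutation p = 0.2, adjusted over 3 ratios 0.2). With libraries left out in turn the difference ranged from 0.22 (without hnRNPL-deficient library 3) to 0.48 (without WT library 1).

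*Akt1*, the AKT kinase most tied to growth and survival, lies on chromosome 12 (112653821 to 112674884). It had 5586, 6765 and 6223 normalized counts in WT against 5392, 6151 and 4083 in hnRNPL-deficient libraries. The groups overlapped, and hnRNPL-deficient library 3 stood below the 5 others. The log2 fold change of *Akt1* was -0.27 (SE 0.155, limma adjusted p = 0.311), with an interval of 0.651 to 1.06-fold. On the log2 scale this was the widest interval of the 8 genes. Without hnRNPL-deficient library 3 the log2 fold change was -0.10.

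*Akt2*, the AKT kinase best known for its part in glucose metabolism, was the least changed of the 8. *Akt2* had 5532, 6069 and 5759 normalized counts in WT against 5847, 6266 and 5211 in hnRNPL-deficient libraries. The hnRNPL-deficient mean was at 99.8% of the WT mean (log2 fold change -0.01, SE 0.101, limma adjusted p = 0.976), and the interval was 0.848 to 1.17-fold. The sign of so small a difference turned with scaling to equal totals and without some libraries. The *Akt2* to *Akt1* ratio was 0.990, 0.897 and 0.926 in WT against 1.08, 1.02 and 1.28 in hnRNPL-deficient libraries. Each hnRNPL-deficient ratio lay above each WT ratio, with a log2 difference of 0.26 (SE 0.106, two-sided exact permutation p = 0.1, adjusted over 3 ratios 0.15). Without hnRNPL-deficient library 3 this difference was 0.17, and with other libraries left out it ranged up to 0.33.

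**Figure D3:**
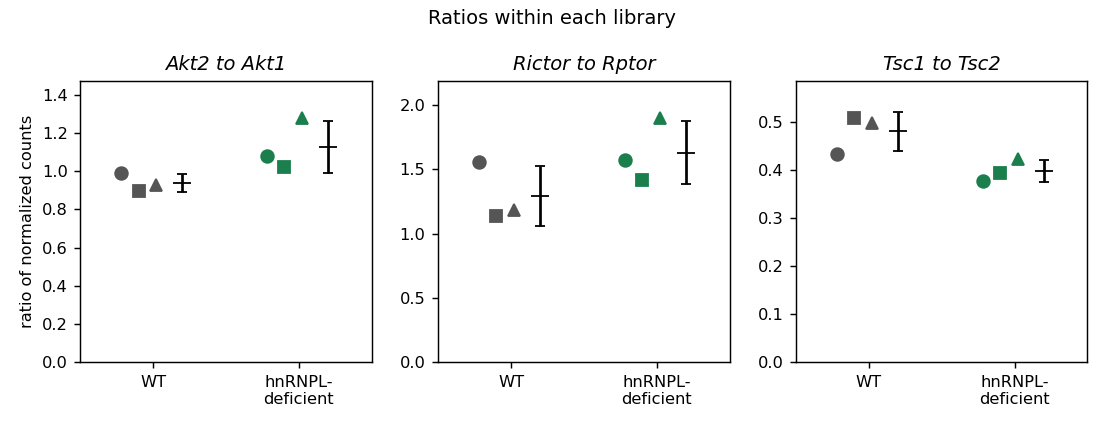
Ratio of normalized counts within each library (vertical axes, each starting at 0) for *Akt2* to *Akt1*, *Rictor* to *Rptor* and *Tsc1* to *Tsc2*. Grey marks WT, green hnRNPL-deficient, symbols the library number, and bars the mean and SD. The groups are apart for the first and last ratio and overlap for *Rictor* to *Rptor*.

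Around these 8 genes, 108 other genes of the pathway were sorted into 6 lists by role, and 103 of them were tested. Of the 103, 12 were called higher and 3 lower, or 14.6%, against 11.4% of all tested genes. Higher calls made up 7.28% and lower calls 4.08% of all tested genes. At any size of change 30 of the 103 (29.1%) passed an adjusted p of 0.1, 21 of them higher. Of all tested genes 18.0% passed, 10.0% as higher and 7.97% as lower. The lists were chosen with earlier results of these data known.

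Among the other subunits and partners of the complexes, none of 10 tested genes was called by limma, against 11.4% of all tested genes. edgeR and DESeq2 called none of the 10 either. *Prr5*, a subunit of mTORC2 that binds Rictor, was the only 1 of the 10 with an adjusted p under 0.1, against 18.0% of all tested genes. *Prr5* had 3652, 3616 and 3888 normalized counts in WT against 2845, 2891 and 2471 in hnRNPL-deficient libraries. The groups were apart, and the log2 fold change of -0.45 (SE 0.101, limma adjusted p = 0.0271) was under the 1.5-fold minimum. Per kilobase *Prr5* stood well above *Rictor*, at 1939.8 against 308 in WT. *Deptor*, an inhibitor of mTOR, had the highest log2 fold change of the list at 0.63 (limma adjusted p = 0.192), on only 43.5 ± 8.74 normalized counts in WT. *Mlst8*, the subunit common to both complexes, had 1017 ± 126 in WT against 1180 ± 108 in hnRNPL-deficient libraries (limma adjusted p = 0.339).

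Amino acid sensing reaches mTORC1 through the Rag GTPases on the lysosome. Of 30 tested genes of this list, 5 (16.7%) were called, all higher, against 7.28% called higher among all tested genes. *Sesn2*, a sestrin that senses leucine and restrains mTORC1 through GATOR2, and a known p53 target, had 882, 1163 and 1074 normalized counts in WT against 2999, 2942 and 2649 in hnRNPL-deficient libraries. *Sesn2* was thus 2.75 times as abundant, with a log2 fold change of 1.47 (SE 0.129, limma adjusted p = 5.28e-04). *Sesn1*, also a p53 target, rose from 762 ± 51.2 to 1324 ± 94.1 (log2 fold change 0.80, limma adjusted p = 0.00490). *Sesn3*, named after its values were seen, was under 1.5-fold at 0.45 (limma adjusted p = 0.0348). All 3 sestrin genes were higher in each hnRNPL-deficient library than in any WT library. Of all tested genes, 34.0% had such separate groups in one direction or the other.

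*Castor2*, which belongs to the family of cytosolic arginine sensors, had 255, 263 and 278 normalized counts in WT against 650, 660 and 555 in hnRNPL-deficient libraries, with the groups far apart. Its log2 fold change was 1.22 (SE 0.144, limma adjusted p = 0.00201). *Bmt2*, which encodes the S-adenosylmethionine sensor SAMTOR, rose from 1224 ± 128 to 2211 ± 225 (log2 fold change 0.85, limma adjusted p = 0.00485). *Nprl3*, a subunit of the GATOR1 complex that inactivates the Rag GTPases, rose from 1114 ± 111 to 1674 ± 115 (log2 fold change 0.59, limma adjusted p = 0.0177). *Nprl3* was at the 1.5-fold limit and fell below it without WT library 1 (0.51) or hnRNPL-deficient library 2 (0.54), by edgeR and DESeq2 (0.57 and 0.55), with array weights (0.50) and with *Xist* as a covariate (0.58). The products of these 5 genes are all known as negative regulators or sensors upstream of mTORC1. Other genes of this kind in the list were not called. Among them were *Castor1* (log2 fold change -0.64, limma adjusted p = 0.318) and the other GATOR1 subunit genes, *Depdc5* (0.16, limma adjusted p = 0.313) and *Nprl2* (0.18, limma adjusted p = 0.431). *Fnip2*, with 18.4 ± 4.73 normalized counts in WT against 6.25 ± 5.71 in hnRNPL-deficient libraries, had the lowest log2 fold change of the list (-1.77, limma adjusted p = 0.131). The Rag genes and the 5 *Lamtor* genes of their lysosomal anchor were not called.

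In the list of energy and stress inputs, 3 of 14 tested genes (21.4%) were called, all higher. Among all tested genes 7.28% were called higher. *Ddit4* (REDD1), a stress-induced gene that acts through the TSC complex to inhibit mTORC1, had 624, 457 and 487 normalized counts in WT. It had 1706, 1343 and 1536 in hnRNPL-deficient libraries, 2.92 times the WT mean. The log2 fold change of *Ddit4* was 1.55 (SE 0.158, limma adjusted p = 0.00105). Its paralog *Ddit4l* was barely detected in WT, with 4.64, 4.32 and 1.53 normalized counts, and reached 46.9, 35.3 and 43.9 in hnRNPL-deficient libraries (log2 fold change 3.33, SE 0.435, limma adjusted p = 0.00298). *Prkaa2*, the less abundant catalytic subunit of the energy sensor AMPK in these cells, rose from 49.2 ± 19.7 to 122 ± 21.2 (log2 fold change 1.34, limma adjusted p = 0.0300). *Prkaa1*, the major catalytic subunit, had 5570 ± 941 in WT against 6478 ± 640.2 in hnRNPL-deficient libraries (limma adjusted p = 0.327). *Stk11*, encoding the AMPK kinase LKB1, had a log2 fold change of -0.07 (limma adjusted p = 0.705), and *Prkag2* had the lowest of the list, -0.24 (limma adjusted p = 0.262).

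**Figure D4:**
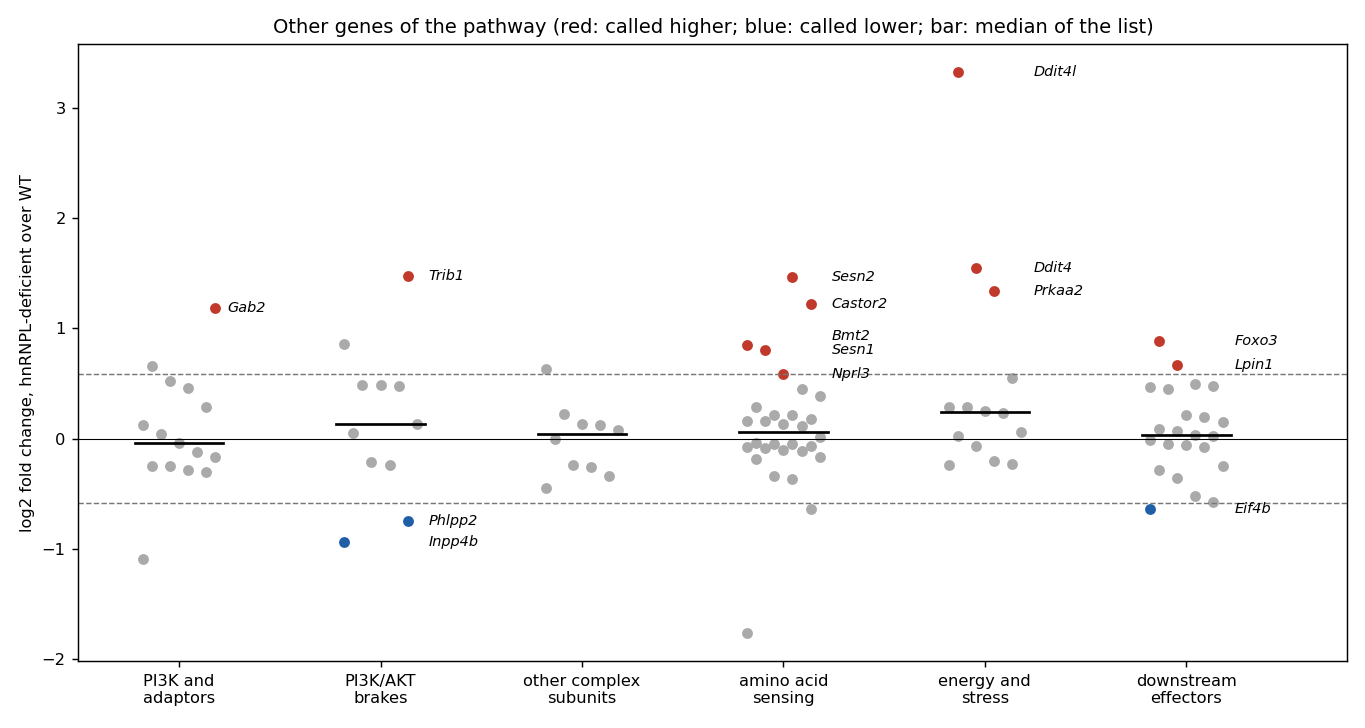
Log2 fold change (vertical axis) of the 103 other pathway genes tested, by list. Red and blue points were called higher and lower, grey points were not called, short bars give the median of each list, and dashed lines mark 1.5-fold. *Ddit4l* is the highest at 3.33, and *Inpp4b*, at -0.94, is the lowest of the called genes.

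Upstream, 15 genes of PI3K, its adaptors and activators were tested, and 1 (6.67%) was called, against 11.4% of all tested genes. *Gab2*, a docking adaptor for PI3K, had 29.0, 15.6 and 40.5 normalized counts in WT against 63.1, 67.6 and 54.8 in hnRNPL-deficient libraries (log2 fold change 1.19, SE 0.373, limma adjusted p = 0.0769). *Gab2* lost its call with each library but WT library 3 left out (limma adjusted p from 0.117 to 0.197) and by edgeR (0.177) and DESeq2 (0.214). *Pik3cd*, the catalytic subunit p110δ that is the main one in B cells, had 7080 ± 1032 in WT against 6006 ± 1248 in hnRNPL-deficient libraries (limma adjusted p = 0.386). *Pdpk1*, the kinase that activates AKT, was at 7443 ± 650 in WT against 7653 ± 365 in hnRNPL-deficient libraries. *Pik3r3* had the lowest log2 fold change of the list, -1.09 (limma adjusted p = 0.109).

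Among 11 genes that oppose PI3K or AKT, 3 (27.3%) were called, against 11.4% of all tested genes. The 3 moved in both directions. *Inpp4b*, a phosphatase of the PI3K lipid products, had 3210, 3066 and 3597 normalized counts in WT against 1487, 1835 and 1826 in hnRNPL-deficient libraries, 52.1% of the WT mean. *Inpp4b* fell by 0.94 on the log2 scale (SE 0.122, limma adjusted p = 0.00291). *Phlpp2*, a phosphatase that removes the mTORC2 phosphate from AKT, fell from 2707 ± 165 to 1603 ± 38.9 (log2 fold change -0.75, limma adjusted p = 0.00298). *Phlpp1*, of the same function, differed the other way, from 2668 ± 171 to 3719 ± 99.8, with a log2 fold change of 0.48 that was under 1.5-fold (limma adjusted p = 0.0158). The groups were apart for both *Phlpp* genes, as they were for 34.0% of all tested genes. *Trib1*, a pseudokinase of the Tribbles family, rose from 79.0 ± 4.59 to 224 ± 31.5 (log2 fold change 1.48, limma adjusted p = 0.00366). *Inpp5d* (SHIP1), a phosphatase that restrains PI3K signaling in B cells, had a log2 fold change of -0.24 (limma adjusted p = 0.287).

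Downstream of AKT and mTORC1, 3 of 23 tested genes were called. *Eif4b*, a translation initiation factor phosphorylated by the mTORC1 target S6 kinase, had 23980, 26861 and 24037 normalized counts in WT against 16688, 18189 and 13420 in hnRNPL-deficient libraries. The groups were apart, and the log2 fold change was -0.64 (SE 0.128, limma adjusted p = 0.0166). Without hnRNPL-deficient library 3 the change of *Eif4b* was under 1.5-fold (-0.52), as it was with quantile normalization (-0.50) and array weights (-0.57). *Lpin1*, encoding lipin 1, a phosphatidate phosphatase that mTORC1 keeps out of the nucleus, rose from 688 ± 48.4 to 1095 ± 43.9 (log2 fold change 0.67, limma adjusted p = 0.00961). *Foxo3*, encoding a transcription factor that AKT excludes from the nucleus, was the third and had the highest log2 fold change of this list (0.89). The study names it from these libraries, so it is no independent sign of the list's direction.

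Other downstream genes passed the adjusted p without reaching 1.5-fold, and those named next were chosen after their values were seen. *Eif4ebp2*, a translational repressor that mTORC1 inactivates, had a log2 fold change of -0.58 (limma adjusted p = 0.0142). *Larp1*, which represses translation of mRNAs of the translation machinery and is an mTORC1 substrate, was abundant at 40219.8 ± 1557 normalized counts in WT. It was at 28141 ± 2229 in hnRNPL-deficient libraries (log2 fold change -0.52, limma adjusted p = 0.0149). *Rps6kb1*, encoding S6 kinase 1, had a log2 fold change of -0.29 (limma adjusted p = 0.0910), while *Eif4ebp1*, *Ulk1* and *Gsk3b* did not pass. In the other direction, *Foxo1*, encoding a transcription factor that AKT excludes from the nucleus, had a log2 fold change of 0.45 (limma adjusted p = 0.0163). *Pdcd4*, a translation inhibitor that S6 kinase targets for degradation, was at 0.48 (limma adjusted p = 0.0640), and *Maf1*, a repressor of RNA polymerase III that mTORC1 inhibits, at 0.47 (limma adjusted p = 0.0771). At any size of change 5 of the 23 downstream genes passed as higher and 4 as lower (39.1% together). Of all tested genes, 10.0% passed as higher and 7.97% as lower.

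**Figure D5:**
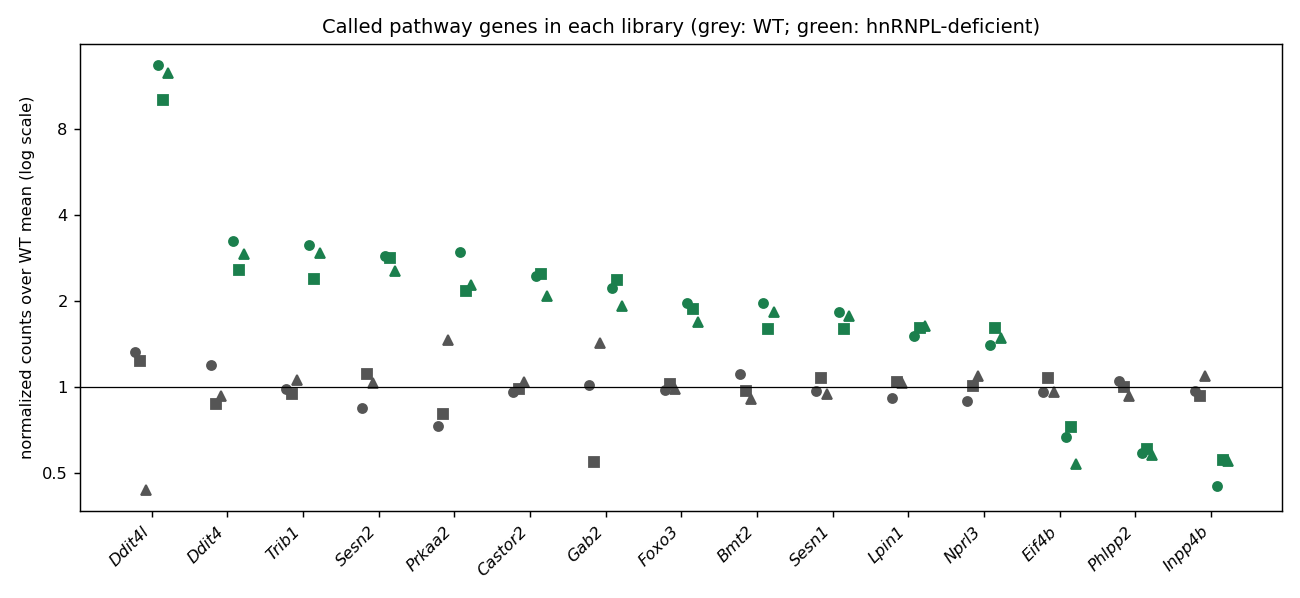
Normalized counts of the 15 called pathway genes in each library, divided by the WT mean of the gene (vertical axis, log scale). Grey marks WT, green hnRNPL-deficient, and symbols the library number. The 12 genes on the left were called higher and *Eif4b*, *Phlpp2* and *Inpp4b* on the right lower. The groups overlap in none, but the genes were chosen for their difference in these same libraries. Of all tested genes, 34.0% show no overlap.

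These are mRNA levels summed over all isoforms of a gene. They do not measure phosphorylation of AKT, TSC2 or mTOR substrates, by which the axis is mainly controlled, nor alternative splicing of its transcripts.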

How the data were processed

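The authors trimmed reads with fastp 0.23.1, aligned them with STAR 2.7.9a to mm10, counted them per gene by strand with featureCounts, and scaled them with DESeq2 1.38.2. The deposited values are normalized counts (a signal, not whole numbers), 1 column per mouse. The authors' own DESeq2 columns in the deposited table (mean signal, log2 fold changes, their errors and statistics as scores, and p-values) were not used.

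Here, log2(normalized count + 1) was fitted with limma 3.58.1 (R 4.3.3, mean-variance trend) over 17640 genes with a mean of at least 10, comparing 3 WT with 3 hnRNPL-deficient libraries. A gene was called at an adjusted p (Benjamini-Hochberg, over all tested genes) under 0.1 and a change of 1.5-fold or more. Fold changes are on that log2 scale, which understates those of low genes. Dividing each library by the value of 1 read, found from its low values, gave whole reads for 100% of values (tolerance 0.1). For the count tests hnRNPL-deficient library 2, whose value of 1 read is close to 1, was set aside, though its values also gave whole reads. edgeR 4.0.16 (1144 higher, 578 lower) and DESeq2 1.42.0 (1180 higher, 721 lower) used the 5 other libraries. Ratios within libraries were compared by exact permutation. Coordinates and exon lengths are from GENCODE on GRCm38, an earlier release than the study's, which matched 17615 tested genes by identifier. Only the limma fit and its calls were tried on simulated data.

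The 8 genes and the pathway lists were chosen with earlier results of these data known. Named are the 8 genes, the called genes of each list and its highest and lowest member, genes resembling the most changed of the 8 and called genes between *Akt2* and *Hnrnpl*. Other genes (*Mlst8*, *Tbc1d7*, *Rhebl1*, *Prkaa1*, *Stk11*, *Pik3cd*, *Pdpk1*, *Inpp5d*, *Phlpp1*, *Sesn3*, *Castor1*, *Depdc5*, *Nprl2* and the downstream genes under 1.5-fold) were picked after their values were seen. Alternatives were pseudocounts of 0.5 and 5, other filters, scalings, variance models and thresholds, the replicate number as a block, *Xist* as a covariate, and each library left out. Some genes of the lists are not reported here by name.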

Additional observations from a re-analysis of the deposited data

How the results depend on the processing

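Direction and side of the adjusted p of 0.1 held in all 19 alternatives for *Akt1*, *Tsc1*, *Tsc2* and *Rheb*, and none of the 8 genes reached 1.5-fold with an adjusted p under 0.1 in any. *Akt2* turned positive with scaling to equal totals (0.05), quantile normalization (0.10) and array weights (0.02), and ranged from -0.07 to 0.07 with each library left out. *Rptor* was at 0.00 with quantile normalization and ranged from -0.22 to 0.02 with libraries left out, above 0 only without WT library 2. *Mtor* passed an adjusted p of 0.1 with array weights (-0.37), with DESeq2 (-0.38) and without WT library 1 (-0.39, range over left-out libraries -0.39 to -0.24). With the replicate number as a block, *Mtor* (-0.31, adjusted p = 0.0257 from limma) and *Rictor* (0.26, adjusted p = 0.0900) passed, calls rose to 1755 higher and 1018 lower, and 1 gene each was called lower in the PI3K and amino acid lists. Same-numbered libraries share only a number: their deviations from the group means correlated at 0.429, 0.32 and 0.0663 across genes, and not every library correlated best with its own number. Blocked ratio differences (sign-flip permutation, smallest p 0.25) did not change sign.

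At an adjusted p under 0.05 and 2-fold, 610 genes were higher and 216 lower, with 2 higher genes in the amino acid list, 0 in the PI3K list and 0 downstream, and 0 lower genes among the brakes and 0 downstream. Leaving out libraries gave 830 to 1111 higher and 478 to 696 lower genes, lowest without WT library 3 for both. The 1 PI3K gene called higher (*Gab2*) was lost (0 genes) with no filter, a minimum mean of 50, array weights, edgeR and DESeq2, and left-out libraries gave 0 to 1; array weights called 1 PI3K gene lower, as did 0 to 1 over left-out libraries. A second brake was called higher (2 genes) with a pseudocount of 5, no filter, equal totals, array weights and the block, and 1 to 2 were with libraries left out. In the amino acid list 1 gene was called lower with quantile normalization and array weights (0 to 1 over left-out libraries). Downstream, 0 genes were called lower with quantile normalization and array weights, 2 by DESeq2, and 0 to 2 with libraries left out. The cause of these shifts was not tested beyond the thresholds themselves. Of 283 values of the 15 called pathway genes under alternatives, 255 kept their call and 28 lost it, with no change of sign. With 3 mice per group, changes of *Akt1* or *Rptor* well under 1.5-fold could not be distinguished from none.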

Other observations

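*Akt2* (chromosome 7, 27591552 to 27640826) lies 1168 kb from *Hnrnpl*, the gene carrying the floxed allele, on the same chromosome. Of the 38 tested genes between them, 5 were called higher and 2 lower, or 18.4%, against 11.4% of all tested genes. The 5 with the largest log2 fold changes were *Fbxo27* (1.75), *Lrfn1* (1.33), *Eid2* (1.20) and *Zfp607b* (0.97), which were higher, and *Plekhg2* (-0.84), which was lower. *Fbxo27*, *Lrfn1* and *Eid2* had WT means of at most 11.9 normalized counts. *Akt2* itself had a log2 fold change of -0.01.

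Across the 6 libraries, the pattern of *Tsc2*, the most changed of the 8 genes, was most like those of *Plk2* (Pearson's r = 0.9994) and *Zfp750* (r = 0.999) among named genes averaging 50 normalized counts or more. These are descriptions over 6 libraries in 2 groups, and 540 of 10666 compared genes (5.06%) had an r of at least 0.95 with *Tsc2*. With the *Tsc2* groups tight and apart, a high r shows mainly that a gene also differs between the groups. The sizes of change differed widely, with *Plk2* rising from 35.8 ± 10.4 to 590 ± 58.5 normalized counts (log2 fold change 4.03) against 0.40 for *Tsc2*. *Zfp750* was nearly absent in WT, at 4.45 ± 1.40 against 188 ± 31.6 in hnRNPL-deficient libraries. Both genes had WT means under 50 and met that minimum only through the hnRNPL-deficient libraries.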
